A study of Homo sapiens with 5 samples.

Results

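RAC1 and DAGLB are neighbouring genes on human chromosome 7, and the 130-kb window around them (chromosome 7, 6380 to 6510 kb on hg19) held more SMAD2 summits after palbociclib. The window was chosen by that count, so the counts describe the locus and no test of the treatment is given. It held 111 of the 233945 summits listed in the 4 libraries, which chained into 59 of 115321 regions (summits at most 200 bp apart). RAC1 runs from 6414.1 to 6443.6 kb on the plus strand, and DAGLB runs on the minus strand from its start at 6487.6 kb to its end at 6448.7 kb. The genes therefore converge, with 5.1 kb between their ends and a start site at each outer edge.

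The cells were T47D, an estrogen receptor-positive luminal breast cancer line. In 2 libraries they had received palbociclib (PD0332991), an inhibitor of CDK4 and CDK6, at 1 µM for 24 h, together with activin A at 50 ng/ml for 1.5 h. In the other 2 libraries they had received activin A alone at the same dose and time. Every library was an anti-SMAD2 chromatin immunoprecipitation from activin-treated cells, so nothing here shows the locus without activin, and an input library of untreated cells served the authors' peak calling only. All libraries come from 1 cell line, and the labels do not say whether replicates were separate cultures.

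Activin A binds a serine/threonine kinase receptor that phosphorylates SMAD2 and SMAD3, which join SMAD4 and enter the nucleus to bind regulatory DNA. RAC1 encodes a small GTPase that drives actin polymerisation at the leading edge of the cell and takes part in cell spreading and migration. DAGLB encodes diacylglycerol lipase beta, a membrane enzyme that makes the endocannabinoid 2-arachidonoylglycerol from diacylglycerol. In the RefSeq gene order, FAM220A and SMIM10L3 precede RAC1, and KDELR2, a receptor that returns proteins to the endoplasmic reticulum, follows DAGLB.

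The strongest summit of the window lay at the DAGLB start in every library, so the bases before that start are shown here. They are from RefSeq on GRCh38.p14, chr7:6447955-6448204, read on the minus strand. That is another build than the summit positions, and the position of a summit within the stretch was not read from it. Capitals mark the SMAD box (CAGAC, or its reverse complement GTCTG) and a GC-rich SMAD element (GGCGC, or its reverse complement GCGCC).

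DAGLB promoter: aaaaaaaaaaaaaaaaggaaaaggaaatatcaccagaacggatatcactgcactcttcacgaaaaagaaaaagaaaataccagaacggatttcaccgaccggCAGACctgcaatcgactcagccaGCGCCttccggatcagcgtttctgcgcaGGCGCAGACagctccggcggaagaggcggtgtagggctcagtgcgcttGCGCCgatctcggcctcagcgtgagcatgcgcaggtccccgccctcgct

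The 250 bases held 2 copies of CAGAC, which begin 148 and 93 bases before the start, and 3 copies of the GC-rich element, which begin 125, 97 and 49 bases before it. The element at 97 and the box at 93 share 1 base. Such matches are common: of 35116 RefSeq promoter stretches of the same length, 38.0% held the box in either orientation and 8.84% held at least 2 copies. The GC-rich element was present in 44.5%, and at least 3 copies in 20.2%. No match was present for AP-1 (TGAGTCA or TGACTCA), forkhead (TGTTTAC), the GATA factors (AGATAA), grainyhead (AACCGGTT), the nuclear receptor half-site (AGGTCA) or TEAD (GGAATG) on either strand. These letters were present in 4.2%, 2.98%, 9.17%, 0.117%, 12.1% and 11.9% of the stretches, in that order. A match is a string of letters and not a measured binding site.

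At the DAGLB start SMAD2 enrichment was among the strongest of each list. The score of a summit is read as −log10 q against the input, and it belongs to its own list. This summit scored 271 and 283 in the palbociclib libraries, at ranks 614 and 398, and 183 and 201 in the activin libraries, at ranks 561 and 492. It thus lay within the strongest 0.975% and 0.61% of the palbociclib lists and 1.09% and 0.907% of the activin lists. The positions were 6487617 and 6487651 after palbociclib and 6487641 and 6487632 with activin alone, within 35 bp of each other. The groups' scores did not overlap. Scores rise with read depth, which is unknown, and the rank percentages lie close together, so no difference in binding is read from them.

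At the RAC1 start a weaker summit was present in every library, at 6413891 and 6413871 after palbociclib and at 6413888 and 6413890 with activin alone. It lay 0.2 kb before the start. The score was 49.0 and 38.7 in the palbociclib libraries and 54.8 and 24.5 in the activin libraries, so the groups overlapped. Its place in the list was 16.2% and 17.5% from the top after palbociclib, and 12.4% and 23.2% with activin alone. The RAC1 start was therefore a moderate site of the lists in either treatment.

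A further strong site lay 25.5 kb before the RAC1 start, in the direction of FAM220A and SMIM10L3. The positions of those genes on hg19 were not used, so whether the site lies at the start of either is not known here. The site scored 111 and 142 after palbociclib and 89.9 and 62.5 with activin alone, at 7.0% and 3.74% of the palbociclib lists and 5.92% and 10.0% of the activin lists. The scores did not overlap, whereas the places in the lists did. Between this site and the RAC1 start, 25.2 kb held no summit in any library.

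**Figure D1:**
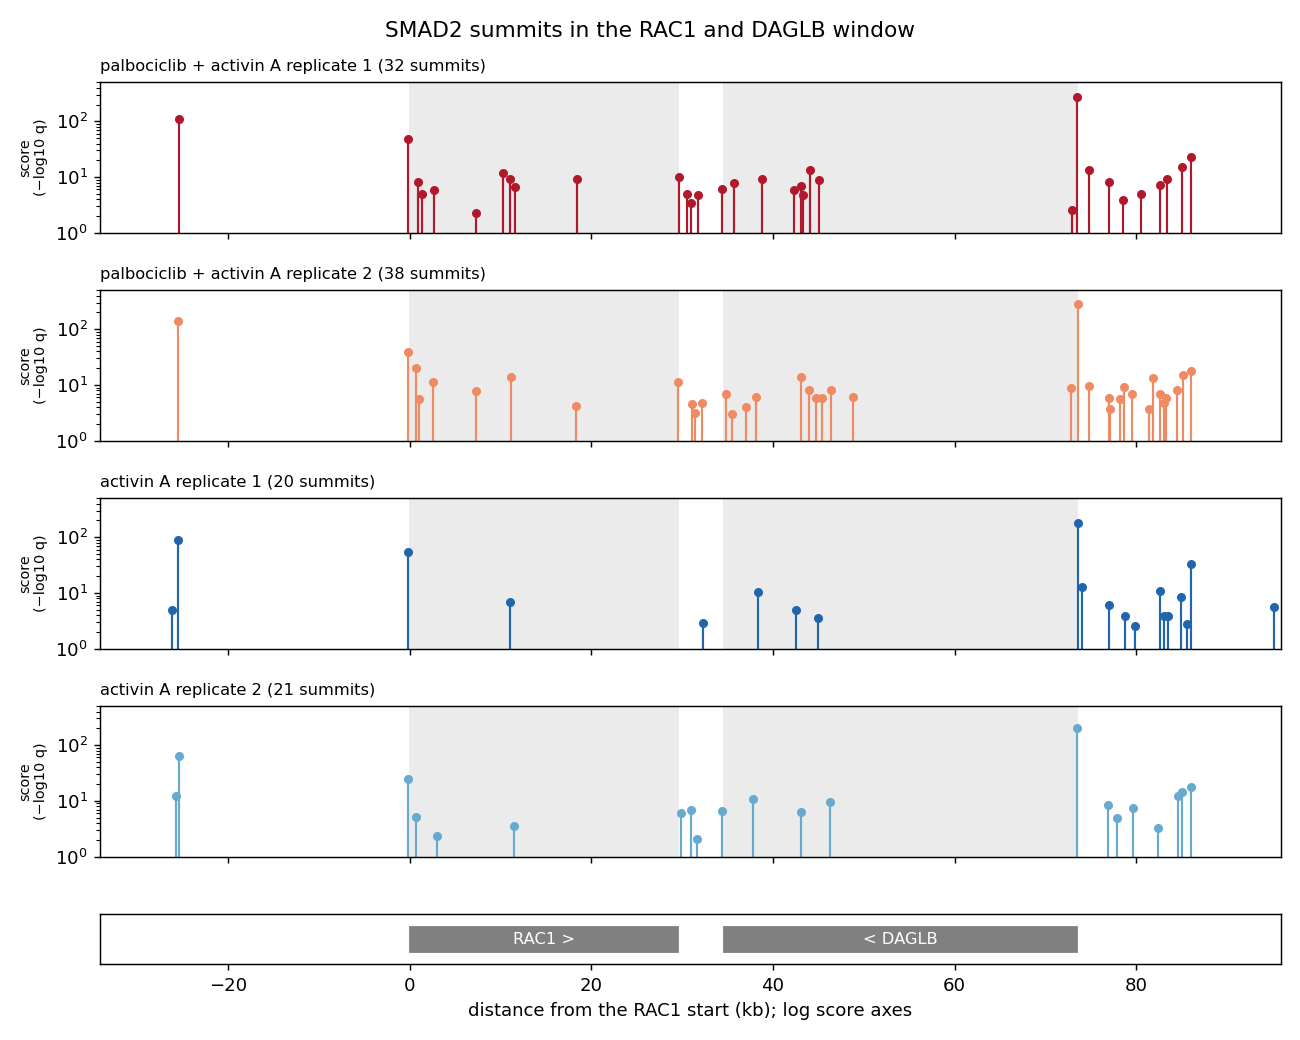
Position of each SMAD2 summit, in kb from the RAC1 start, against its score (−log10 q, log axis) in each of the 4 libraries, with the palbociclib libraries on top and the 2 gene spans shaded. The tall summits at the DAGLB start, at the RAC1 start and 25.5 kb before RAC1 stand in every library, while the shaded spans hold more, mostly low, summits in the palbociclib libraries.

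Most of the surplus after palbociclib lay inside the gene spans. The whole window held 32 and 38 summits in the palbociclib libraries and 20 and 21 in the activin libraries, or 35.0 ± 4.24 and 20.5 ± 0.707 (SD, n = 2 each), a ratio of 1.71. Of the difference of 14.5 summits, 37.9% lay in the RAC1 span and 44.8% in the DAGLB span. Another 10.3% lay between the genes and 13.8% above DAGLB, and the stretch below RAC1 went the other way, with 2 and 2 summits after palbociclib and 3 and 3 with activin alone. Of 15608 windows of this length on chromosomes 1 to 22 and X, 19.0% had both palbociclib counts above both activin counts. By the size of its difference the locus ranked 10, and by its total of summits it ranked 128. By its ratio it ranked 3996. The median window held 7 summits over the 4 libraries, against 111 here, and no rank among windows of like density is given. Since the window was chosen on this contrast, nothing is read from the ranks of its difference and ratio.

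In the RAC1 span the palbociclib libraries listed 8 and 7 summits, against 1 and 3 in the activin libraries. The summit of palbociclib replicate 2 at 6443583 lay at the bound of the gene's end, so its side is not resolved. With it counted, the mean was 7.5 ± 0.707 after palbociclib and 2.0 ± 1.41 with activin alone (SD, n = 2 each), a ratio of 3.75. Both palbociclib libraries were higher than both activin libraries. The span lies in a window chosen on this contrast, and the share of stretches of its length with that pattern was not counted. On the log2 scale the ratio was 1.91. Since the activin counts are so small, it was 2.91 without activin replicate 2 and 1.32 without activin replicate 1. The density in the span was 0.254 summits per kb after palbociclib and 0.0678 with activin alone.

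In the DAGLB span there were 8 and 11 summits after palbociclib, against 3 and 3 with activin alone. The means were 9.5 ± 2.12 and 3.0 ± 0.0 (SD, n = 2 each), a ratio of 3.17, and the groups did not overlap. As for RAC1, the window was chosen on this contrast, and the share of stretches of like length without overlap was not counted. These summits did not fill the gene. Apart from 1 summit in each palbociclib library just inside the start (6487081 and 6486942), all lay in the part towards the end of the gene, and the 24.0 kb from 6462955 to 6486942 held none in any library.

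The stretch above DAGLB was rich in summits in both treatments. It held 9 and 15 summits after palbociclib and 12 and 8 with activin alone, or 12 ± 4.24 and 10.0 ± 2.83 (SD, n = 2 each), and the groups overlapped. Its 22.4 kb carried 0.536 summits per kb after palbociclib and 0.446 with activin alone, above the density of either gene span. Between the gene ends there were 5 and 3 summits after palbociclib and 1 and 4 with activin alone, which also overlapped.

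**Figure D2:**
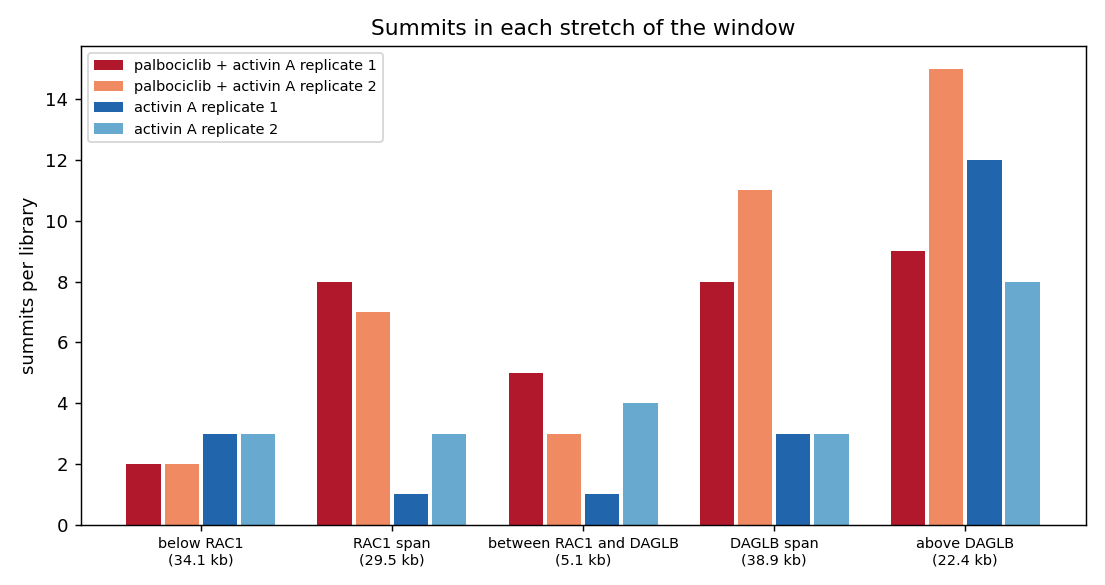
Number of SMAD2 summits per library in 5 stretches of the window, with the 2 palbociclib libraries left of the 2 activin libraries in each set of bars. The groups stand apart with palbociclib higher in the RAC1 span (8 and 7 against 1 and 3) and the DAGLB span (8 and 11 against 3 and 3), and overlap between the genes and above DAGLB.

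Of the 13 bins of 10 kb in the window, 3 were empty. Of the 10 filled bins, 6 had both palbociclib counts above both activin counts, 1 had the reverse and 3 overlapped. Over all 10-kb bins that held a summit these shares were 10.8% and 2.67%, and since the window was chosen on the same contrast, nothing is read from its count. The bin from 6450 to 6460 kb, inside DAGLB, held 6 and 6 summits after palbociclib and 3 and 2 with activin alone. The bin from 6430 to 6440 kb, inside RAC1, held 1 and 1 after palbociclib and 0 and 0 with activin alone. The fullest bin, from 6490 to 6500 kb above DAGLB, held 6 and 12 after palbociclib and 8 and 6 with activin alone.

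Most of the additional summits were weak. Summits scoring 5 to under 10 numbered 15 and 18 in the palbociclib libraries and 4 and 8 in the activin libraries, or 16.5 ± 2.12 and 6.0 ± 2.83 (SD, n = 2 each). Those scoring 10 or more numbered 8 and 11 after palbociclib and 7 and 8 with activin alone. Those under 5 numbered 9 and 9 after palbociclib and 9 and 5 with activin alone. The class from 5 to under 10 thus held 10.5 of the 14.5 additional summits. The window was chosen on this contrast, and the share of windows with the groups apart in this class was not counted. Nothing is therefore read from that separation. In the window 75.0% and 71.1% of summits scored under 10 after palbociclib, against 52.7% and 55.9% of those whole lists, and 65.0% and 61.9% with activin alone, against 52.6% and 57.2%. Under a score of 5 the window's 9 of 32 and 9 of 38 summits after palbociclib stood against 21.7% and 24.2% of the lists. With activin alone, 9 of 20 and 5 of 21 stood against 21.7% and 26.6%, so replicates differed at this bound. The median score of the window was 8.06 and 7.0 after palbociclib and 5.75 and 7.42 with activin alone.

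With summits of at least 10 only, the RAC1 span held 1 and 4 after palbociclib and 0 and 0 with activin alone, and the DAGLB span held 1 in every library. Neither span as counted held a summit among the highest 10000 of any list. The summit at the DAGLB start is among them, but it was counted with the stretch above, and its side of the bound is not resolved. Among the highest 10000 the window kept 2 and 2 summits after palbociclib and 3 and 2 with activin alone. These are too few to show whether the higher count after palbociclib extends to the strongest summits.

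**Figure D3:**
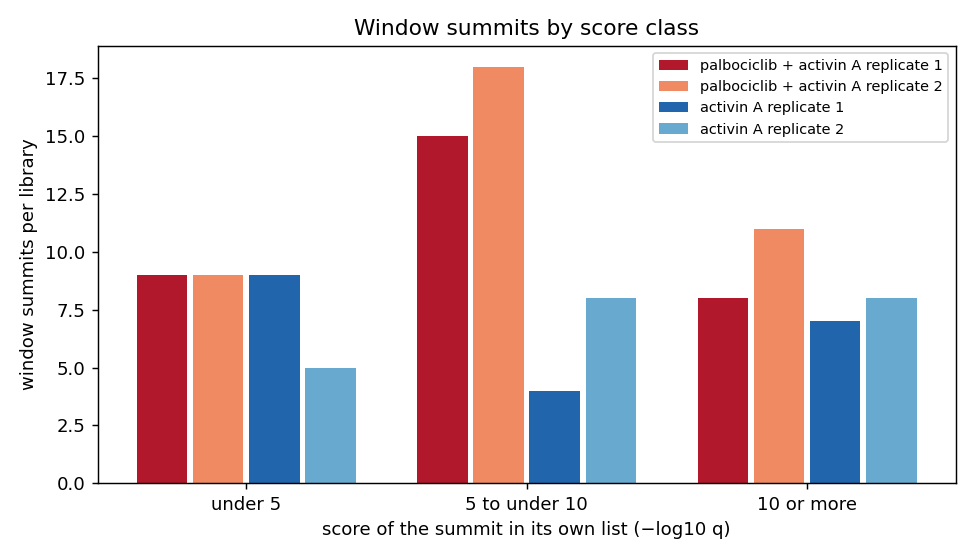
Number of window summits per library in 3 classes of score (−log10 q in the summit's own list), palbociclib libraries left of activin libraries. The groups stand apart in the class from 5 to under 10, with 15 and 18 after palbociclib against 4 and 8 with activin alone. They lie close at scores of 10 or more. The share of windows with the groups apart in a class was not counted, and the window was chosen on this contrast.

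The palbociclib lists were longer as a whole, with 62960 and 65207 summits against 51535 and 54243 in the activin lists, a ratio of 1.21. Per 10000 summits of its list the window held 5.08 and 5.83 after palbociclib and 3.88 and 3.87 with activin alone. The ratio of these shares was 1.41, and the groups did not overlap, as in 14.8% of windows. With scores of at least 10 only, the groups overlapped in this share and its log2 ratio was 0.04, against 0.49 with all summits. With every list trimmed to its strongest 51535 summits the window held 26 and 29 after palbociclib and 20 and 19 with activin alone. In that setting 8.61% of windows had both palbociclib counts above both activin counts. The RAC1 span then held 7 and 6 against 1 and 2, and the DAGLB span 6 and 9 against 3 and 3. Trimming kept summits down to scores of 4.87 and 4.8 in the palbociclib lists and 1.34 and 2.9 in the activin lists. The part of read depth in these counts was not tested.

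Of the 7 regions shared by the 4 libraries, none lay well inside the RAC1 or DAGLB span: 1 was at the DAGLB start, and 6 lay outside the spans. Their place relative to other genes was not checked. The region at the DAGLB start began 0.017 kb beyond the gene's bound, which is known to 0.1 kb, so its side of the bound is not resolved and it was counted with the stretch above. The shared regions made up 11.9% of the 59 regions, against 20.4% of all regions. Beside the DAGLB start, the RAC1 start and the site 25.5 kb before it, 4 lay above DAGLB at 3.4, 8.95, 11.4 and 12.5 kb from its start. The farthest scored 23.1 and 17.7 after palbociclib and 33.4 and 17.8 with activin alone. Its neighbour, at 6499021 to 6499210, scored 15.2 and 15.1 after palbociclib and 8.35 and 14.6 with activin alone. The region at 6491001 to 6491244 scored 8.28 and 5.89 after palbociclib and 6.0 and 8.56 with activin alone. The one at 6496545 to 6496722 scored 7.11 and 7.0 after palbociclib and 10.9 and 3.26 with activin alone. The scores of the groups overlapped at 3 of these 4 regions, and at 6499021 to 6499210 both activin scores were lower. Over all 7 regions the scores overlapped at 4 and the rank percentages at 7. How often this holds over all regions found in every library was not counted, so nothing is read from it.

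**Figure D4:**
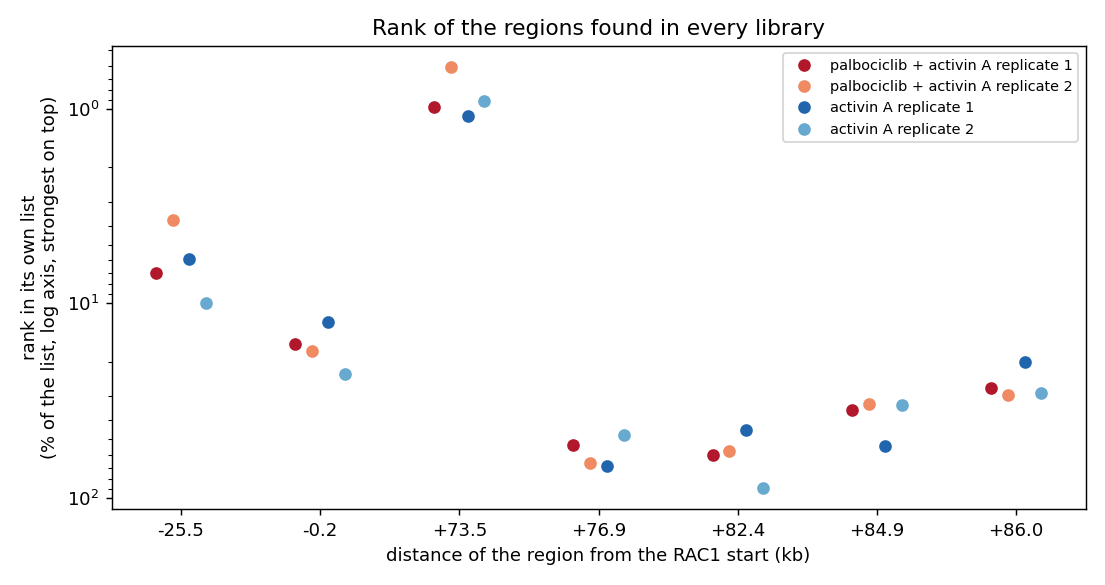
Rank of each region found in all 4 libraries, as the percentage of the library's own list counted from the strongest summit (log axis, strongest on top), by its distance from the RAC1 start in kb. The DAGLB start, at +73.5 kb, ranks within the first 1.09% in every library, and the groups overlap in rank at each of the 7 regions. The share of such overlap over all regions found in every library was not counted.

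Regions with a summit in each palbociclib library and no activin summit numbered 8, or 13.6% of the 59, against 5.29% of all regions. The reverse pattern was found in 0 of 59, against 2.22% of all regions. The window was chosen on this contrast, so nothing is read from these shares. The count of 8 was 5 with lists of equal length and 2 with a chaining gap of 1000 bp. Leaving out palbociclib replicate 1 gave 19, and leaving out replicate 2 gave 17, because a summit in the other library then sufficed. Of the 8 regions, 5 began in the RAC1 span, 2 lay in the DAGLB span and 1 above DAGLB. The last of the 5 began at the bound of the RAC1 end, so its side is not resolved. The remaining regions were 28 of a single library, 10 with 1 library of each treatment and 6 with 3 libraries.

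Within RAC1, the most closely placed pair lay 7.31 kb from the start, at 6421410 and 6421426 in the palbociclib libraries, with scores of 2.31 and 7.87. The nearest activin summit was 3700 bp away. Farther into the gene, a pair at 6432493 and 6432419 scored 9.12 and 4.2, and the nearest activin summit was 6854 bp away. Near the start, the pair at 6414988 and 6415082 scored 8.17 and 5.68, and the pair at 6416754 and 6416663 scored 5.87 and 11.5. Activin summits lay 212 and 382 bp from these. A pair at the gene's end, at 6443781 and 6443583, scored 9.91 and 11.4 and lay 212 bp from an activin summit. Its first summit was counted between the genes and its second in the RAC1 span.

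Within DAGLB, the region at 6458108 to 6458162 scored 13.3 and 8.17 in the palbociclib libraries, and the nearest activin summit was 945 bp away. The region just inside the start, from 6486942 to 6487081, scored 2.62 and 8.77. Above the gene, the region at 6488912 to 6488949 scored 13.3 and 9.78, with an activin summit 730 bp away. The scores of the 8 regions ran from 2.31 to 13.33, and 6 of the 8 lay within 1000 bp of an activin summit. The absence of a summit from a list is not the absence of SMAD2, since each list holds only positions past the authors' threshold.

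Both genes also held sites that missed 1 activin library. In RAC1, the region at 6425114 to 6425227 scored 9.28 and 14.0 after palbociclib and 7.01 in activin replicate 1, and activin replicate 2 had none there. In DAGLB, the region at 6457142 to 6457195 scored 6.92 and 13.9 after palbociclib and 6.31 in activin replicate 2, with none in activin replicate 1. Of the 6 regions found in 3 libraries, 5 lacked an activin library and 1 lacked palbociclib replicate 1. Of all regions found in 3 libraries, 62.8% lacked an activin library.

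The summits of the window were also sought in the other lists. Of the summits in palbociclib replicate 1, 20 of 32 had one of replicate 2 within 200 bp, where the whole list had 58.2%, and 32 of 32 had one within 1000 bp, where the whole list had 79.7%. Of those in palbociclib replicate 2, 21 of 38 had one of replicate 1 within 200 bp (whole list 56.3%) and 35 of 38 within 1000 bp (whole list 80.6%). In activin replicates 1 and 2, within 200 bp, palbociclib replicate 1 found 10 and 12 of its 32 summits (whole list 50.0% and 50.5%). Palbociclib replicate 2 found 13 and 13 of its 38 there (whole list 49.1% and 49.5%). Activin replicate 1 found 10 and 12 of its 20 summits in palbociclib replicates 1 and 2 (whole list 61.2% and 62.2%) and 8 in activin replicate 2 (whole list 58.0%). Activin replicate 2 found 12 and 13 of its 21 in the palbociclib libraries (whole list 58.7% and 59.3%) and 8 in activin replicate 1 (whole list 55.1%). Within 1000 bp (whole list in brackets), palbociclib replicate 1 found 22 and 24 of its 32 in the activin libraries (69.9% and 71.2%). Palbociclib replicate 2 found 26 and 31 of its 38 there (70.7% and 72.3%). Activin replicate 1 found 20 and 19 of its 20 in the palbociclib libraries (83.5% in each) and 17 in activin replicate 2 (79.6%). Activin replicate 2 found 19 and 21 of its 21 (81.3% and 81.8%) and 16 in activin replicate 1 (76.3%). These figures rest on few summits, and comparisons that use the same library are linked. The window was denser than the lists, with 0.269 summits per kb after palbociclib and 0.158 with activin alone, against 17.5 to 22.2 per Mb. The part of this density in the recovery was not tested, so nothing is read from the figures between replicates. The window was chosen on the contrast of the treatments, so nothing is read from the recovery between them.

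The windows next to the locus had fewer summits. The 130 kb below held 7 and 7 after palbociclib and 5 and 7 with activin alone. The 130 kb above held 17 and 12 after palbociclib and 6 and 8 with activin alone, a ratio of 2.07. These groups did not overlap, a pattern found in 19.0% of windows of this length, so nothing is read from it. The next window above held 15 and 22 after palbociclib and 10 and 16 with activin alone. At the lower edge of the locus the first summits inside lay 7.92 to 8.65 kb from the bound and the last ones outside 12.5 to 34.8 kb from it. At the upper edge, activin replicate 1 had a summit 0.69 kb inside, with a score of 5.49, and palbociclib replicate 1 had one 0.291 kb outside, with a score of 3.39. The last summits of the other libraries lay 9.84 to 9.88 kb inside.

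**Figure D5:**
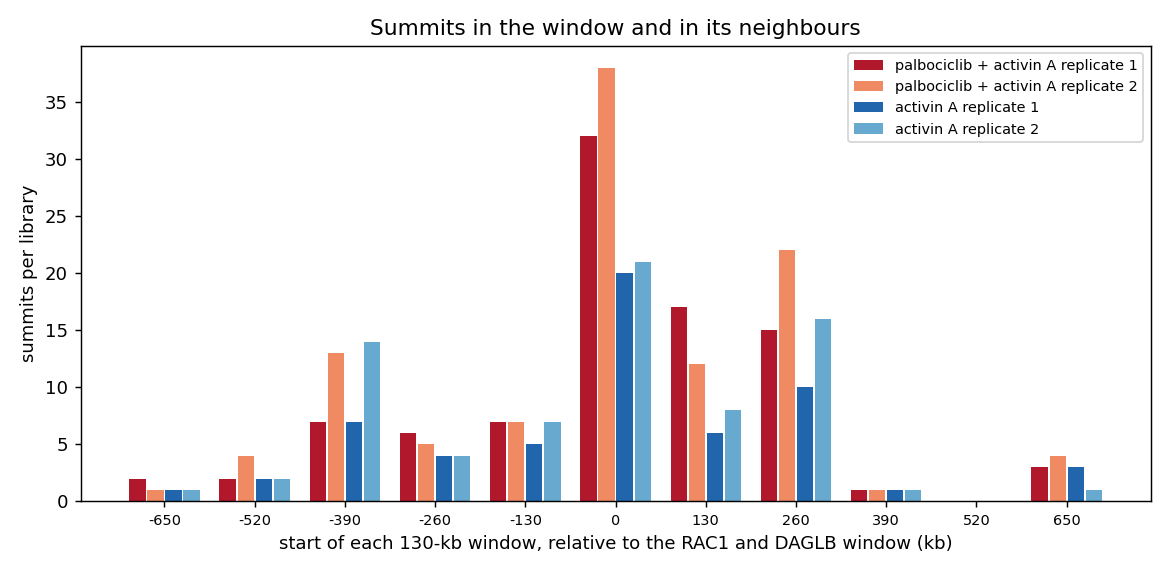
Number of SMAD2 summits per library in windows of 130 kb around the locus (the window starting at 0), palbociclib libraries left of activin libraries. The locus, with 32 and 38 against 20 and 21, is the fullest of the 11 windows. The window directly above it also has both palbociclib counts higher, with 17 and 12 against 6 and 8. Of all windows of this length, 19.0% have that pattern.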

How the data were processed

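SMAD2 chromatin immunoprecipitation libraries of T47D cells were analysed from the summit lists that the authors deposited, 1 per library. Per the submitters' processing notes, the tools were MACS2 2.0.9, Picard and Bowtie 1.1.0 and the build was hg19; filters and settings: not given in the sources used here. The deposited score was read as −log10 q, because the lowest value was 1.31 and a q of 0.05 corresponds to 1.30. Positions were made 1-based, and chromosomes 1 to 22 and X were kept. The gene bounds are known to 0.1 kb. Summits of all lists were chained into regions at gaps of at most 200 bp. Windows of 130 kb were laid over each chromosome on the grid of the locus, and those holding a summit were counted. Read depth per library is unknown, so differences in list length and score cannot be separated from depth, and with 2 libraries per group no test was run on the contrast that chose the locus. The window, the genes and the lists were chosen with earlier results of these data known. Named were all regions found in every library or in both libraries of 1 treatment only, and regions with 3 libraries in the genes were added after their values were seen, as were the 10-kb bins, score classes and neighbouring windows. Lists of genes acting with RAC1 or DAGLB were not analysed, since no annotation on hg19 was used here. Alternatives were minimum scores of 5 and 10, equal list lengths, the highest 10000 summits, other bounds and gaps, leaving out each library in turn, and a replicate block. Overlap counting was checked on made-up lists. Python 3.11.15, numpy 2.4.6, pandas 2.3.3 and matplotlib 3.10.9 were used.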

Additional observations from a re-analysis of the deposited data

How the results depend on the processing

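The log2 ratio of window summits (palbociclib over activin, 0.77) was 0.34 with scores of at least 10, 0.50 at equal list lengths, 1.49 from the RAC1 start to the DAGLB start, and 0.64 to 0.89 without each library. The log2 ratio of the window's share of the list (0.49) was 0.64 with scores of at least 5 and 0.04 with scores of at least 10. Among the highest 10000 summits both turned to −0.32, resting on 9 summits in all, and the cause was not tested. For DAGLB (1.66) the ratio was 1.32 at equal lengths and 0.0 with scores of at least 10. RAC1 gave no ratio at scores of at least 10, because the activin libraries then had none. Neither gene span as counted had a summit in the highest 10000, with the summit at the DAGLB start counted above the gene. Regions of both palbociclib libraries alone (8) numbered 5 at equal lengths, 2 with a gap of 1000 bp and 10 to 19 without each library. Regions of both activin libraries alone (0) numbered 0 to 6 without each library, since a group left with 1 library needs only that one. Regions in all libraries (7) numbered 11 with a gap of 500 bp. With a replicate block (mean of the ratios within a number) the log2 ratios were 0.77 for the window, 0.49 for its share, 2.11 for RAC1 and 1.64 for DAGLB. The numbers gave no sign of pairing (correlation of same-numbered deviations 0.0264 over 3570 windows with at least 20 summits). Of 63 alternative values, 2 reversed.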
